A study of Rattus norvegicus with 8 samples.

Results

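B2m, the rat MHC genes (names starting with RT1-) and the genes Cd74, Tap1, Tap2 and Tapbp were followed in the RNA of plasma exosomes from exercised and sedentary rats. Of the 29541 genes in the table, 36 carried one of these names, and the 33 with a value above 0 in at least 1 of the 8 libraries were kept. RT1-Ba, RT1-M3-1 and RT1-M5 were at 0 in every library. Just inside that limit lay 5 genes (RT1-M1-2, RT1-M2, RT1-O1l1, RT1-DMb and RT1-Da) that had 1 read each, in 1 library. By role the 33 genes were B2m, 19 class I heavy chains, 9 class II chains together with Cd74, and the 3 peptide loading genes Tap1, Tap2 and Tapbp. In a RefSeq list of rat assembly GRCr8, 32 of the 33 were found by symbol, with 30 on chromosome 20, where the rat MHC lies, B2m on chromosome 3 and Cd74 on chromosome 18.

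All animals were male Sprague Dawley rats that had arrived at 9 to 10 weeks of age, in a cohort kept apart from the rats injected with alpha-synuclein fibrils. The 4 exercised libraries (a to d) came from rats that had trained for 1 month, 5 days a week, each session being 30 min of treadmill running at a speed of 20 m/min that followed a warm-up (5 min, 10 m/min). The 4 sedentary libraries (a to d) came from controls that stayed in the same room without running. Exosomes were precipitated from plasma taken within 30 min of the last run, and their total RNA was sequenced from both groups alike. The labels do not say whether a library was 1 rat or a pool, and the study's text is not of one mind on how many rats were sequenced per group, so n counts libraries and each test measured the spread between libraries, which may be technical, and no female rats were included.

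B2m encodes beta-2-microglobulin, the small light chain that almost every nucleated cell puts on its surface together with an MHC class I heavy chain. The heavy chain holds a peptide from inside the cell, which the TAP transporter (Tap1 and Tap2) has pumped into the endoplasmic reticulum and tapasin (Tapbp) has helped to load, and CD8 T cells and NK cells read the complex. Class II molecules are pairs of an alpha and a beta chain that present peptides from outside to CD4 T cells. They are made mainly by B cells, dendritic cells and macrophages, with Cd74, the invariant chain, as their escort.

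The promoters of 4 members that the results turn on are printed to show the letters upstream of the light chain, of the classical heavy chain RT1-A1, of the heavy chain with the most uneven reads, RT1-S2, and of tapasin. They run from 250 bases before to 50 after the start site in RefSeq, build GRCr8. B2m lies at chr3:129549080-129549379 on the plus strand, RT1-A1 at chr20:4906959-4907258 (plus), RT1-S2 at chr20:2654804-2655103 (plus) and Tapbp at chr20:4967828-4968127 (minus). Capitals mark matches on either strand to the core of an interferon-stimulated response element (ISRE, searched as GAAA, 2 bases of any kind, then GAAA), to the Y box (CCAAT) and to the core of the X2 box (TGACG), elements known from MHC promoters.
B2m: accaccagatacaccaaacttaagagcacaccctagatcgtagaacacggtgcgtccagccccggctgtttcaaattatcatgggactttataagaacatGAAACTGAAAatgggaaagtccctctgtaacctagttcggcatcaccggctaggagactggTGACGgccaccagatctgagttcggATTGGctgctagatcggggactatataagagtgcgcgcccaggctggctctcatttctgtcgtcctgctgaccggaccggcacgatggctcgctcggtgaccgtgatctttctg
RT1-A1: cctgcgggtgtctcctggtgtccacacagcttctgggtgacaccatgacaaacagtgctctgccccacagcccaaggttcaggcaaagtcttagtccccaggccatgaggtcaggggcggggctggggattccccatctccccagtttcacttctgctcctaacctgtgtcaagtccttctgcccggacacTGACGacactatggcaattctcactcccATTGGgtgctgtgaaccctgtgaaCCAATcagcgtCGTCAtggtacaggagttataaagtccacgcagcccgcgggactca
RT1-S2: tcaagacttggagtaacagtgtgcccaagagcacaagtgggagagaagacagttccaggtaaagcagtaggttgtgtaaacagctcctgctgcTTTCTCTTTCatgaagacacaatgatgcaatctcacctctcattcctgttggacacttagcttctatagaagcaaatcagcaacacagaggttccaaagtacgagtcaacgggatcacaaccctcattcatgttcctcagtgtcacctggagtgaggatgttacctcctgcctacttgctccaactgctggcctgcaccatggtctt
Tapbp: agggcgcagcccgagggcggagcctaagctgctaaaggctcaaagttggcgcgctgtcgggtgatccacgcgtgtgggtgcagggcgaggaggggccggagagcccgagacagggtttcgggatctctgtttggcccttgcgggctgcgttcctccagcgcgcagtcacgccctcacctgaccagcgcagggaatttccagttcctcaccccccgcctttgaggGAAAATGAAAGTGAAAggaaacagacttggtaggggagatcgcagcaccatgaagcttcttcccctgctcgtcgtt

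A promoter was at hand for 27 of the 33 genes. The ISRE core was found in 7 of them (B2m, RT1-N3, RT1-S2, RT1-S3, Tap1, Tap2 and Tapbp), against 3.92% of all 33469 rat promoters of this length. It starts 150 bases before the start site in B2m and 157 in RT1-S2, and Tapbp has 2 matches that overlap, at 26 and 20 bases before. CCAAT stood in all 8 class II promoters, in 8 of 15 class I promoters, in B2m and in 0 of 3 loading promoters, against 37.5% of all promoters. TGACG stood in 6 of the 27, a share close to the 21.2% of all promoters. These 6 were B2m and 5 of 15 class I promoters, with 0 of 8 class II and 0 of 3 loading promoters. A match is a description of these letters and not of a factor bound there. The search took exact letters, so an element that differs in a base was not counted. A promoter without a match, such as that of RT1-A1 for the ISRE core, may still hold such an element.

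The libraries held 10020804 to 31357153 reads, as recovered from the steps of the TPM values (reads divided by gene length and scaled to a total of 1000000 per library). The 10 most abundant RNAs took 99.3 to 99.7% of these reads, which left 64776 to 139868 reads per library for all other genes. Reads of a gene are therefore given per 1000000 reads outside those 10 RNAs (RPM), a scale for comparing libraries, and TPM is used where genes are compared with each other. One read was worth 7.15 to 15.4 RPM. Exercised a was the shallowest library and had 5333 genes above 0, where the others had 7563 to 10853. The mRNAs of the exosome list (Cd9, Cd63, Cd81 and 4 others) summed to 164 to 293 RPM in sedentary and 209 to 463 RPM in exercised libraries. Of the 5 with at least 10 reads, 4 had a higher and 1 a lower exercised mean, where 47.3% and 52.7% of all 7744 such genes had. Sdcbp, with 6 sedentary and 46 exercised reads, was higher with no overlap, as were 1.05% of these genes. Cd81 had 3 reads, all sedentary.

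B2m was the one gene of the 33 with a mean of at least 1 TPM. Its level was 0.669, 4.07, 1.35 and 1.73 TPM in sedentary a to d and 15.8, 13.999, 9.39 and 2.37 TPM in exercised a to d. Behind these stood 26, 103, 58 and 60 reads in the sedentary and 204, 397, 249 and 63 reads in the exercised libraries. On the RPM scale this was 251, 1349, 594 and 429 in sedentary and 3149, 2859, 2413 and 731 in exercised libraries. Exercised a, b and c stood above every sedentary library, while exercised d lay below sedentary b, so the groups overlapped. The exact 95% binomial interval of exercised d, 562 to 935 RPM, overlapped that of sedentary c, 451 to 768 RPM, but not those of sedentary a, b and d. These intervals cover counting error only.

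The mean of B2m was 656 ± 483 RPM (SD, n = 4) in sedentary and 2288 ± 1081 RPM (SD, n = 4) in exercised libraries, a ratio of 3.49. B2m was among the RNAs picked out in this very contrast, so the ratio is a description and carries no test. Of the 910 genes with at least 100 reads, 66 (7.25%) had a ratio of 3 or more in that direction. The ratio was 5.39 without sedentary b, and 5.32 on TPM as deposited, a scale on which every library also moves with its 10 most abundant RNAs. In a bulk sample such as this, a different number of vesicles from a cell type and a different amount of RNA per vesicle cannot be told apart.

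**Figure D1:**
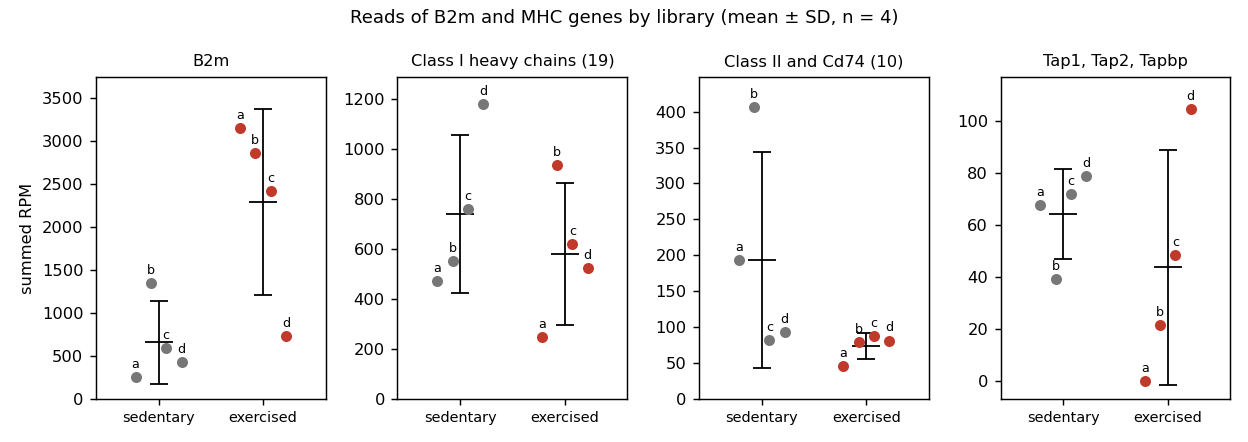
Points are libraries (letters a to d) and bars the mean ± SD (n = 4) of summed RPM, in sedentary (grey) and exercised (red) rats, for B2m, the class I heavy chains, class II with Cd74, and the peptide loading genes. B2m has its 3 highest libraries in the exercised group (2413 to 3149 RPM), while the class II panel has its highest point, 406 RPM, in sedentary b.

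The 19 heavy chains together had 585 reads, 330 in sedentary and 255 in exercised libraries. Their summed RPM was 473, 550, 758 and 1180 in sedentary a to d and 247, 936, 620 and 522 in exercised a to d. Sedentary d was highest and exercised a, which had the most B2m RPM, was lowest, and the groups overlapped. The means were 740 ± 317 and 581 ± 284 RPM (SD, n = 4), a ratio of 0.785. On TPM the ratio of the same sum was 2.21, but 0.799 without RT1-S2, a gene with nearly all its reads in exercised b.

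Set against B2m in the same library on the TPM scale, the class I sum was 0.851, 0.200, 0.792 and 1.37 times B2m in sedentary a to d. In exercised a to d it was 0.0321, 0.578, 0.143 and 0.302 times B2m, and 0.101 in exercised b without RT1-S2. Heavy chain RNA exceeded B2m RNA in sedentary d alone, and sedentary b lay within the range of the exercised libraries. The class II sum was 0.657, 0.251, 0.117 and 0.138 times B2m in sedentary and 0.0103, 0.0253, 0.0402 and 0.0825 times B2m in exercised libraries, with no overlap, also without Cd74, where the lowest sedentary value was 0.0949. B2m is the divisor in each of these values and was picked for its difference, so they are descriptions. B2m made up 37.1, 68.0, 50.3 and 37.9% of the TPM of all 33 genes in sedentary a to d, and 95.9, 62.2, 83.6 and 67.0% in exercised a to d.

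**Figure D2:**
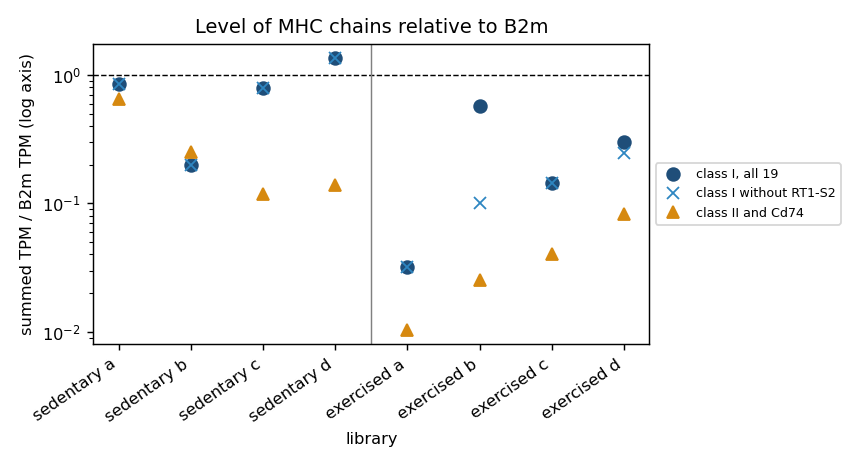
Summed TPM of class I heavy chains (all 19, and without RT1-S2) and of class II with Cd74, divided by the TPM of B2m in the same library, on a log axis, with 1 (equal levels) dashed. The class II values of the exercised libraries (0.0103 to 0.0825) all lie below those of the sedentary libraries (0.117 to 0.657), while the class I values overlap.

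Single heavy chains had few reads, and 13 of the 19 had at least 10 over the 8 libraries. RT1-A1, the classical heavy chain with the most reads, had 8, 13, 18 and 16 reads in sedentary and 0, 31, 10 and 5 in exercised libraries. Its mean was 137 ± 49.8 RPM in sedentary and 94.5 ± 94.6 RPM (SD, n = 4) in exercised libraries, a ratio of 0.692 (1.04 on TPM), and the exercised group held both the lowest and the highest library. Its 0 reads in exercised a, beside 204 of B2m there, allow up to 46.3 RPM (3 reads). The exact permutation test of RT1-A1 (two-sided, 70 assignments) gave p = 0.486.

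RT1-S2, a non-classical heavy chain, had 53 reads in exercised b and 1 in exercised d, with 0 in the other 6 libraries. These are the smallest whole counts that its 2 values above 0 allow, so the true counts may be a multiple of them. Its level in exercised b was 6.68 TPM, where B2m had 13.999 TPM. The exact 95% lower limit of the pooled RPM ratio, which covers counting error only, was 15.0, but without exercised b 1 read was left. The exact permutation test gave p = 0.429. In RefSeq the model of RT1-O1l1 overlaps both RT1-S2 and RT1-O1, so reads of these 3 genes may have been split between them, and exercised b had 0 reads of RT1-O1l1 and 1 of RT1-O1. Likeness between the other heavy chain genes was not measured, and the sources used here do not give how the counter treated reads that match several genes.

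RT1-CE14, a heavy chain of the CE region, had 15, 0, 8 and 53 reads in sedentary and 0, 1, 4 and 0 in exercised libraries. Sedentary d held 53 of its 81 reads, and sedentary b had none, so the groups overlapped. The means were 151 ± 163 and 11.5 ± 18.5 RPM (SD, n = 4). RT1-CE14 was the one member other than B2m with an unadjusted p under 0.05 in the model fitted to reads over all genes with limma voom (log2 fold change -2.72, SE 1.18, unadjusted p = 0.0326, limma adjusted p = 0.803). Of the 7744 genes tested 3.87% were called lower in this way. The limma adjusted p was 0.2 to 0.979 over the alternatives, and the exact permutation test on RPM gave p = 0.143.

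The non-classical RT1-S3 had 5, 4, 17 and 25 reads in sedentary and 5, 12, 5 and 1 in exercised libraries, a ratio of mean RPM of 0.493. RT1-T24-1 was read in all 8 libraries, with 3, 11, 8 and 13 sedentary and 1, 6, 10 and 5 exercised reads and a ratio of 0.614. For both genes the groups overlapped. RT1-T24-4 had a ratio of 0.185 with 16 of its 28 reads in sedentary d, and RT1-CE2 a ratio of 0.255 with 12 of 23 reads there. RT1-CE16 (0.722) and RT1-M1-4 (0.472) also had lower means in the exercised group. None of the heavy chains in this paragraph had groups that stood apart.

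On the other side, RT1-CE15 had 2, 0, 3 and 11 reads in sedentary and 9, 5, 9 and 4 in exercised libraries, a ratio of 2.40. In exercised a it made up 9 of the 16 heavy chain reads. RT1-M10-1, whose mouse relatives are known from vomeronasal neurons, had a ratio of 3.42, with 13 of its 27 reads in exercised d. RT1-CE1 (1.495) and RT1-N1 (1.28) had higher exercised means on 21 and 16 reads. RT1-N3 had 5 reads, all in 3 exercised libraries, which lies below the minimum of 10 reads for a test.

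Class II was close to the limit of detection. Its 9 chains and Cd74 had 102 reads in all, 72 in sedentary and 30 in exercised libraries. The summed RPM was 193, 406, 81.9 and 92.9 in sedentary a to d and 46.3, 79.2, 87.2 and 81.2 in exercised a to d. Sedentary a, b and d stood above all exercised libraries, d by 92.9 to 87.2 RPM, while sedentary c lay among them. The ratio of means was 0.380, and 0.599 without sedentary b.

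Cd74, the invariant chain, had 19 of its 21 reads in sedentary b, 1 in sedentary a, 1 in sedentary d and 0 in all exercised libraries. The exact 95% upper limit of the pooled RPM ratio, which covers counting error only, was 0.204, but without sedentary b only 2 reads were left. The exact permutation test gave p = 0.143, and 1.78% of the genes with at least 10 reads had no exercised read beside at least 10 sedentary ones. Sedentary b also held 4 of the 7 reads of the class II chain RT1-Db1. Cd74 and RT1-S2 were the 2 of 19 members (B2m aside) with over 80% of their reads in 1 library, which held for 4.2% of all genes with at least 10 reads.

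RT1-Bb, the beta chain of the rat B class II molecule, was the one member whose groups did not overlap on RPM. Its values were 48.2, 26.2, 30.7 and 50.05 RPM in sedentary and 15.4, 21.6, 9.69 and 23.2 RPM in exercised libraries, from 2 to 7 and 1 to 3 reads. Every sedentary library lay above every exercised one, but the nearest pair, sedentary b and exercised d, held 2 reads each. The ratio of means was 0.451, and the exact permutation test gave p = 0.0286, the smallest that 70 assignments allow, without adjustment. Of all genes with at least 10 reads, 2.36% were lower with no overlap in this way, and 3.41% did not overlap in either direction. On TPM as deposited the groups overlapped (exact permutation p = 0.229). Limma voom gave a log2 fold change of -0.96 (SE 0.77, unadjusted p = 0.227).

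RT1-DMa, a chain of the DM molecule that exchanges peptides on class II, had 7 sedentary and 6 exercised reads, and the pseudogene RT1-Hb-ps1 had 13 and 6. Their ratios were 0.709 and 0.486 on RPM, and that of RT1-DMa was 1.22 on TPM. The other 6 class II chains had 1 to 8 reads each. Ciita, the transactivator that switches class II genes on, had 8 reads, all in sedentary a, b and c, and was singled out after its values were seen.

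**Figure D3:**
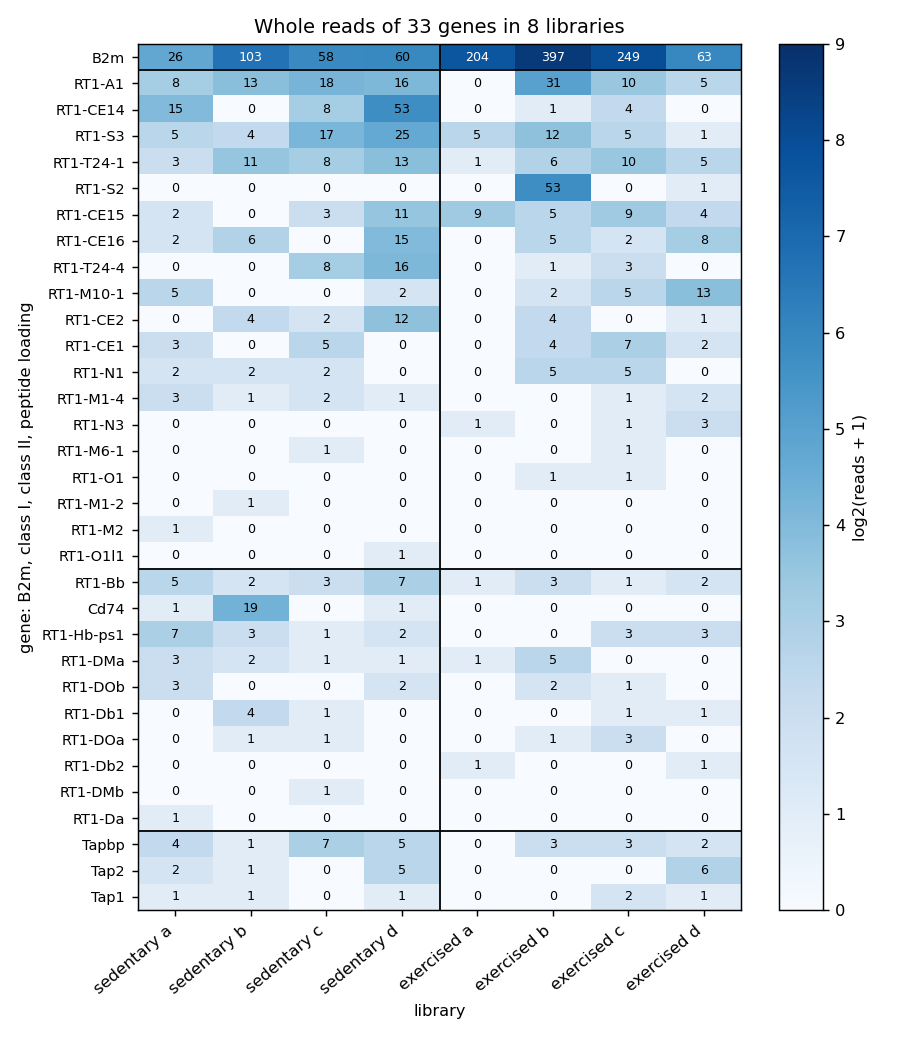
Whole reads of each of the 33 genes (rows, grouped by role) in the 8 libraries (columns), with the shade showing log2(reads + 1). B2m fills its whole row with 26 to 397 reads, whereas the 53 reads of RT1-S2 in exercised b and the 19 of Cd74 in sedentary b stand alone in theirs.

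Of the peptide loading genes, tapasin (Tapbp) had 4, 1, 7 and 5 reads in sedentary and 0, 3, 3 and 2 in exercised libraries, a ratio of 0.464. Tap2 had 2, 1, 0 and 5 sedentary reads, and all 6 exercised reads lay in exercised d, which gave a ratio of 1.02. Tap1 had 6 reads, 3 in each group. Exercised a, with the most B2m RPM of all libraries, had no read of any of the 3 genes. Their summed RPM was 67.5, 39.3, 71.7 and 78.6 in sedentary and 0, 21.6, 48.5 and 104 in exercised libraries, a ratio of 0.678 with the groups overlapping, and of 0.363 without exercised d.

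Of the 19 members other than B2m with at least 10 reads, 13 had a lower and 6 a higher mean RPM in the exercised group, where 52.7% of all 7744 genes were lower and 47.3% higher. By limma voom with Benjamini-Hochberg adjustment 0 of the 19 passed, the smallest adjusted p being 0.803, and 0% of all genes passed. At an unadjusted p under 0.05 there was 1 member of 19, where 5.88% of all genes were called in either direction. By role, 8 heavy chains were lower and 5 higher, 4 class II genes were lower and 0 higher, and 1 loading gene lay on each side. The median log2 fold change of the 19 was -0.96, beside -0.19 for all 7744 genes. It was -0.59 for the 13 heavy chains, -1.065 for the 4 class II genes and -0.94 for the 2 loading genes. Setting RT1-S2 and Cd74 at the exact limits above left each of these member medians as it was. Of the loading genes, Tap2 had -0.98 by voom but a ratio of mean RPM of 1.02, with all its 6 exercised reads in exercised d. Limma on log2(TPM + 1) tested no member besides B2m, since none reached a mean of 1 TPM. The direction of RT1-S2 and Cd74 follows from the minimum of 10 reads, since each had reads in 1 group alone. Without these 2 genes, 12 members were lower and 5 higher, and the median was still -0.96. With few reads per gene and no member passing an adjusted p, neither the counts nor the medians support a direction for the members.

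**Figure D4:**
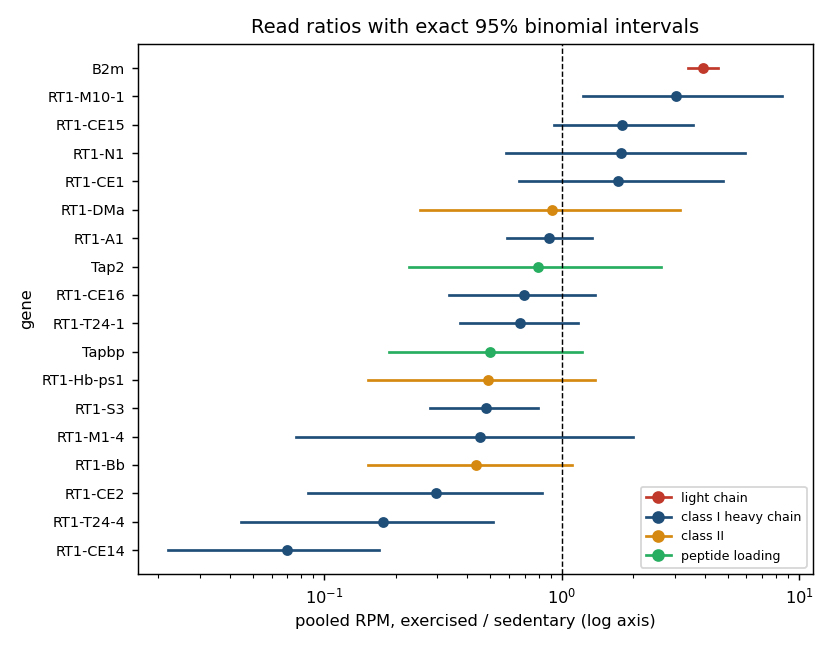
Pooled RPM of the exercised over that of the sedentary libraries (log axis) with exact 95% binomial intervals, for each gene with at least 10 reads and reads in both groups, coloured by role. The interval of B2m (3.41 to 4.54, around 3.93) lies above 1, and RT1-CE14 has the lowest ratio (0.0699, interval 0.0221 to 0.170), with counting error alone shown and not the spread between libraries.

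Other genes of antigen presentation were read from a list of 53, of which 50 were in the table, 47 were above 0 and 30 had at least 10 reads. Of these 30, 21 had a lower and 9 a higher mean in the exercised group, where 52.7% of all genes with at least 10 reads were lower and 47.3% higher. None of the 30 passed an adjusted p by voom, where 0% of all 7744 genes did. Limma on TPM tested only 2 of them, Psme1 and Canx. Neither passed, where 0% of all 508 genes did. At an unadjusted p under 0.05 by voom 1 was higher and 3 were lower, where 2% and 3.87% of all genes were. The genes with the most reads were Psme1, a subunit of the proteasome activator (876 reads, ratio 0.679), and Canx, the chaperone calnexin that holds new heavy chains (461 reads, ratio 0.710). Hspa5 and Calr, also chaperones of the endoplasmic reticulum, had ratios of 0.242 and 0.547, with 184 of the 221 reads of Hspa5 in sedentary d. The immunoproteasome subunits Psmb8, Psmb9 and Psmb10, which cut peptides for class I, had 0 to 8 reads per library.

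Irf2, a factor that binds interferon-stimulated elements, was the one gene of this list that stood higher with no overlap. It had 0, 1, 2 and 1 reads in sedentary and 7, 9, 13 and 4 in exercised libraries. Its means were 10.2 ± 8.71 and 86.3 ± 37.0 RPM (SD, n = 4), a ratio of 8.48 (exact permutation p = 0.0286 on RPM and on TPM, voom adjusted p = 0.380), and 1.05% of all genes were higher with no overlap. Irf1, a related activator, had a ratio of 0.996, and Nlrc5, the transactivator of class I genes, had 0 to 4 reads per library and a ratio of 0.827.

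Ctsl, a lysosomal protease, was lower with no overlap on RPM (ratio 0.289, exact permutation p = 0.0286, voom adjusted p = 0.505), with exact permutation p = 0.343 on TPM. Of all genes with at least 10 reads, 2.36% were lower with no overlap. The nearest pair was sedentary b (118 RPM, 9 reads) and exercised b (115 RPM, 16 reads). Sedentary d held 48 of the 83 sedentary reads of Ctsl. Of the 4 genes of the class II processing list with at least 10 reads, 2 had a lower and 2 a higher exercised mean. Ctsd, another lysosomal protease, had 2 sedentary and 30 exercised reads (ratio 21.0), with 0 reads in exercised b, and its groups overlapped. Azgp1, a secreted class I-like protein known from human to fold without B2m, had 126 sedentary and 24 exercised reads, the latter all in exercised b (voom unadjusted p = 0.00144, adjusted p = 0.260). Pdia3, a disulphide isomerase of the loading complex, had 38 and 3 reads (unadjusted p = 0.0377, adjusted p = 0.817). Of the class I-like chains outside the MHC that pair with B2m, Fcgrt, Hfe, Cd1d1 and Mr1, the one with at least 10 reads was Cd1d1, with 6 sedentary and 5 exercised reads.

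Markers of blood and tissue cells also differed between the libraries. The platelet list (10 genes) summed to 145, 471, 369 and 586 RPM in sedentary a to d and 988, 958, 1657 and 870 RPM in exercised a to d, with no overlap. Gp1bb was at 0, and Ppbp was above 0 in exercised c alone. Its recovered 1 read is the smallest count that this single value allows, so the true count may be higher. Pf4, a chemokine of platelet granules, had 9, 13, 18 and 24 reads in sedentary and 53, 32, 56 and 51 in exercised libraries. The study picked Pf4 in this same contrast, and without it the platelet sums overlapped, at 57.9 to 415 RPM in sedentary and 170 to 1114 RPM in exercised libraries. Of the other platelet genes, Tubb1 had 40 sedentary and 123 exercised reads, Clec1b had 87 of its 90 reads in exercised c, and Treml1 (16 and 3 reads) and Itga2b (32 and 23) had lower exercised means. The erythroid list summed to 13143, 18387, 7457 and 2602 RPM in sedentary a to d and 36124, 7785, 15447 and 11901 RPM in exercised a to d, and the groups overlapped. The hepatocyte list summed to 3785 to 19132 RPM in sedentary, highest in sedentary d, and to 197 to 5848 RPM in exercised libraries. Lower exercised means were found for 9 of its 9 genes, and for 52.7% of all genes with at least 10 reads. The part of platelet, erythroid or hepatocyte RNA in the values of B2m and the heavy chains was not tested.

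For class II, the B cell list summed to 7.15 to 41.0 RPM in sedentary and 0 to 107 RPM in exercised libraries, with Ms4a1 at 0, and the monocyte, macrophage and dendritic cell list to 92.2 to 262 and 77.5 to 154 RPM. The 262 RPM was that of sedentary b, the library with the Cd74 reads, but 196 of it came from Lyz2, the lysozyme of macrophages. There 5 of the 9 genes of that list (Cd14, Csf1r, Cd68, Itgax and Adgre1) were at 0, and without Lyz2 sedentary b had 65.5 RPM, the lowest of all libraries. T and NK cell markers summed to 78.6 to 203 and 15.4 to 209 RPM, with Cd2 and Prf1 at 0. Klrb1 alone held 48 of the 57 sedentary and 26 of the 34 exercised reads of that list. Neutrophil markers summed to 0 to 768 and 0 to 7180 RPM, with Elane at 0. Of the 1021 exercised reads of that list, 303 were of Np4 and 670 of RatNP-3b, both picked by the study in this same contrast. Exercised a and b had at most 1 read of either gene. The endothelial list summed to 270 to 1045 and 220 to 1034 RPM. The part of these cells was not tested.

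**Figure D5:**
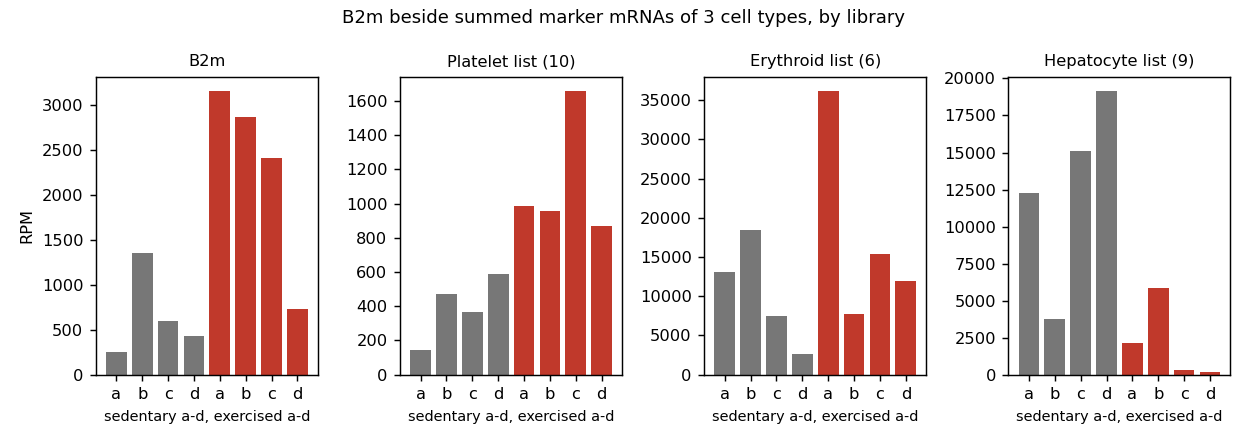
RPM of B2m and summed RPM of the platelet, erythroid and hepatocyte marker lists in each library (bars, sedentary grey, exercised red), with the number of listed genes found in the table in each title. The platelet sums of the exercised libraries (870 to 1657) exceed all sedentary ones (145 to 586), though not without Pf4, and the hepatocyte sums run from 197 RPM in exercised d to 19132 RPM in sedentary d.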

How the data were processed

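Total RNA of plasma exosomes was sequenced in 8 libraries, 4 sedentary and 4 exercised, grouped by their labels. Exosomes came from 1.5 mL of plasma, and libraries were made from 1 ng of RNA with 10 PCR cycles. The authors deposited TPM values whose build, in the submitters' processing notes, is mRatBN7.2. The aligner, the counter, the annotation and any removal of duplicates could not be learned, since the sources used here do not give them.

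TPM keeps no depth, but whole reads were recovered as the smallest whole numbers that give each gene's values, which at a tolerance of 1e-06 held for 71860 of the 71860 values above 0. True reads would be a multiple if a gene's length and all its reads shared a factor. Reads were scaled to RPM outside the 10 most abundant RNAs. The 508 genes whose mean reached 1 TPM were fitted with limma 3.58.1 in R 4.3.3 on log2(TPM + 1), where a fold change understates that of low genes. Genes with at least 10 reads (7744) were fitted with limma voom on reads. Adjustment was by Benjamini-Hochberg over all genes fitted, and the fits were tested on simulated data. Single genes were compared by two-sided exact permutation tests over 70 assignments, whose smallest p is 0.029. Exact (Clopper-Pearson) 95% binomial intervals cover counting error only, and 0 reads in a library allow up to 3. The unit assumed for the table was the unit found. Class II was taken as names starting with RT1-B, RT1-D or RT1-H, and other RT1- names as class I.

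Named were B2m, Cd74, Tap1, Tap2, Tapbp, RT1- members with at least 10 reads or without overlap and, of the other presentation genes, the 6 with the most reads, those without overlap and those that passed a fit. Other genes were named after their values were seen. The members and lists were chosen with earlier results of these data known. Alternatives changed scaling, filters, pseudocount, pairing and the libraries used. Psme2, Psme3 and Tapbpl were not matched by symbol and are not analysed here. Promoters are from RefSeq (GRCr8), whose gene models were otherwise used for chromosomes and for which members overlap.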

Additional observations from a re-analysis of the deposited data

Results flagged for a closer look

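Each group of 4 libraries of each member with at least 10 reads, and of the summed sets, was searched for a library far from the others, 46 groups in all, of which 3 were picked out. The rule is set to pick out about 1 of 20 groups of normally distributed values. That rate does not apply to counts near 0, where a group with reads in 1 library alone is always picked out. In the sedentary group, Cd74 stood at 248.83 RPM in sedentary b, and the nearest library had 9.65 RPM. In the exercised group, RT1-S2 stood at 381.68 RPM in exercised b, with 11.6 RPM in the next, exercised d. Tap2 stood at 69.599 RPM in exercised d and at 0 in the other exercised libraries, from 6 reads. These are 3 different libraries, and the cause was not tested.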

How the results depend on the processing

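Members other than B2m had 1 to 101 reads each over the 8 libraries. The ratio of B2m, 3.49, ranged from 2.89 to 5.39 when 1 library at a time was left out, and was 5.32 on TPM. The class I ratio, 0.785, was 2.21 on TPM and ranged from 0.626 to 0.979 with 1 library left out. The class II ratio, 0.380, was 0.586 on TPM, 0.673 without sedentary b and exercised a, and 0.578 without Cd74, an alternative chosen after seeing the data, and ranged from 0.319 to 0.599. The peptide loading ratio, 0.678, ranged from 0.363 without exercised d to 0.904. Among single members called by the exact test, 1 on RPM became 0 on TPM. Of 222 alternative fits of single members by voom, 214 kept the direction. The 8 reversals were those of RT1-CE16 (-0.17), at 0.092 with median-ratio scaling, 0.72 without sedentary b and exercised a and -1.03 to 0.54 with 1 library left out, of RT1-N1 (0.30), at -0.43 to 0.89, and of RT1-T24-1 (-0.59), at 0.0021 without sedentary b and exercised a. No member passed an adjusted p under any alternative, and at an unadjusted p under 0.05 voom called 4 with a minimum of 3 reads, 0 with 30, and 0 to 2 with 1 library left out. The letters did not pair the libraries (correlations of -0.259 to -0.0198), and the replicate block gave 0 calls by either adjusted fit and 3 at an unadjusted p. The median of all genes was 0.40 by limma on TPM, -0.05 after scaling without the 10 RNAs, -0.19 by voom and 0.00 by voom with median-ratio scaling.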
